A study of Mus musculus with 384 samples.

Results

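Expression of 8 transcription factor genes that direct the formation of granulocytes and their sister lineages was followed across single myeloid cells of the mouse spinal cord: Cebpa, Cebpb, Cebpd, Cebpe, Spi1, Gfi1, Runx1 and Irf8. They were chosen by name, and all 8 were found among the 23420 genes of the table, Spi1 under its older symbol Sfpi1. They are described by the number of cells in which each was listed above 0 and by its level.

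Granulocytes arise in bone marrow through an ordered handover between such factors. PU.1 (the product of Spi1), RUNX1 and C/EBPα act in the progenitors that granulocytes share with monocytes. GFI1 and IRF8 favour opposite branches, GFI1 the neutrophil branch and IRF8 the monocyte and dendritic cell branch, and C/EBPα and GFI1 accompany the making of azurophil granules. C/EBPε is required in mice for the transcription of specific granule genes such as Ltf and Camp, while C/EBPβ and C/EBPδ are known for roles in infection-driven granulopoiesis and in late maturation and inflammation. Mature neutrophils keep the granule proteins but largely stop transcribing their genes.

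The cells came from spinal cords of Optn KO mice, which lack optineurin, an autophagy receptor. Per the labels' protocols, the cords were digested, CX3CR1, CD11b and CD45 antibodies were used for the sort of single cells into plates, and full-length cDNA was made by SmartSeq2, a method that neither marks the strand nor tags molecules. The labels name 384 cells, of which 326 had a column and the other 58 were not analysed here. Replicate 1 held 154 cells (77 on each of plates 1 and 2) and replicate 2 held 172 cells (85 on plate 3 and 87 on plate 4). Every cell carries the same genotype label, so no effect of the knockout was compared, and the labels used here give no age, no type of knockout allele and no word on whether the replicates are separate mice. The p-values below rest on how far differences between cell classes disagreed between these 2 samples, pooled over all classes. The difference between the samples that all classes share is taken out as a block. The disagreement that remains may be technical. Optn was listed at 0 in all 326 cells. A median of 1681 genes per cell was above 0 (range 675 to 5707).

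Cells were divided without using the 8 genes. A cell was counted as a neutrophil when S100a8 plus S100a9, the abundant calprotectin transcripts, reached 10000 TPM (a transcript abundance scaled for transcript length and to the same total in each cell). This gave 286 neutrophils and 40 other cells, the lowest neutrophil at 12512 TPM and the highest other cell at 4019 TPM. The granule level of a cell is its mean log2(TPM + 1) of the specific granule genes Ltf, Camp, Ngp, Lcn2 and Chil3. Among neutrophils with Mki67, a proliferation marker, listed at 0, the granule-high class (granule level of at least 10) held 47 cells in replicate 1 and 62 in replicate 2. The granule-intermediate class (5 to 10) held 24 and 28 cells, and the granule-low class (below 5) held 43 and 45 cells. A granule class is a stretch of a continuous scale, with no gap at its limits: 23 of these cells lay within 0.5 of the limit of 5, and 4 within 0.5 of the limit of 10. Neutrophils with Mki67 above 0, at any granule level, numbered 17 and 20, and 30 of these 37 had a granule level of at least 10. Their Mki67 was as low as 0.29 TPM. Of the 37 cells, 25 had 3 or more of 11 cell cycle genes above 0, a list that holds Mki67 itself. The other cells numbered 23 and 17. The series title names the cells microglia, yet none of the 40 other cells had 3 or more of 14 microglial markers above 0. Of these 40 cells, 28 had 3 or more of 8 monocyte markers, 4 of 10 dendritic cell markers, 3 of 7 T or NK cell markers and 2 of 6 B cell markers, and 32 had 3 or more of 9 neutrophil markers. The monocyte list holds Chil3, a granule level gene. Of the neutrophils, 26 of 109 granule-high and 9 of 37 Mki67-positive cells also had 3 or more monocyte markers. The median number of these markers was 7.5 in other cells and 2 in both of these classes. The classes differed in the number of genes above 0, with medians of 1925 in granule-high, 1509 in granule-intermediate, 1381 in granule-low, 2349 in Mki67-positive neutrophils and 3027.5 in other cells.

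The 4 C/EBP genes are paralogs, and a stretch of their coding sequence is shown because reads from such a stretch are hardest to assign to the right gene. The window of 72 coding bases with the most positions shared by all 4 genes lies in the part that encodes the basic, DNA-contacting region. Capitals mark the 54 positions that are identical in all 4 genes. The sequences come from the GENCODE transcripts on GRCm38, the assembly also called mm10, at chr7:35120289-35120360 (plus strand) for Cebpa, chr2:167689709-167689780 (plus) for Cebpb, chr16:15887919-15887990 (plus) for Cebpd and chr14:54710680-54710751 (minus) for Cebpe.
Cebpa: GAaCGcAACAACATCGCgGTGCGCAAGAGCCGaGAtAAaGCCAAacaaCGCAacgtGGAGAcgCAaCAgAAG
Cebpb: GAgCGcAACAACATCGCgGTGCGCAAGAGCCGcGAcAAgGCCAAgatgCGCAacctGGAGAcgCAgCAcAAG
Cebpd: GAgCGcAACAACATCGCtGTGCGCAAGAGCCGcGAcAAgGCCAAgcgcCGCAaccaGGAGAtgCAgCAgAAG
Cebpe: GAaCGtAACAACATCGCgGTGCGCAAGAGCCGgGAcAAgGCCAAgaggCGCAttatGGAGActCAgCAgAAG
Cebpe matched Cebpa at 59, Cebpb at 63 and Cebpd at 60 of the 72 positions. Over whole transcripts the longest run of identical bases was 29 between Cebpa and Cebpb, 27 between Cebpb and Cebpd, 26 between Cebpe and each of Cebpa and Cebpb, and 14 for the other C/EBP pairs. The read length is not given in the sources used here. Of the annotated genes, Cebpa, Cebpb, Cebpd, Gfi1 and Runx1 overlap a gene on the opposite strand and Irf8 overlaps the gene Gm20388 on its own strand, so reads of these pairs may be split or merged. Cebpe and Spi1 overlap no other annotated gene.

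RefSeq promoters (250 bases before to 50 after the start, GRCm38.p6) were at hand for 5 of the 8 genes, 8 promoters in all. Those of Gfi1 and Irf8 are shown because these genes are the markers of the opposed branches. Both strands were searched for the C/EBP motif TTGCNNAA, the PU.1 motif GAGGAA, the RUNX motif TGTGGT and the TATA box TATAAA, which occur in 10.8%, 28.3%, 16.8% and 13.6% of 32851 promoters of this length. Capitals mark the match to the C/EBP motif in the Gfi1 promoter (chr5:107725756-107726055, minus strand) and to the TATA box in the Irf8 promoter (chr8:120736108-120736407, plus strand), the only matches to the 4 motifs in these 2 sequences.
Gfi1: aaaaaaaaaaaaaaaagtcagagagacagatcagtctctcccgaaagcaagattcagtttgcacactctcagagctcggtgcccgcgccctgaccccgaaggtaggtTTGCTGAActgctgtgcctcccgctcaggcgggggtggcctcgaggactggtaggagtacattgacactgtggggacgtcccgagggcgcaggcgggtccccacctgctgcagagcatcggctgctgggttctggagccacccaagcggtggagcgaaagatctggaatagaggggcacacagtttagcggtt
Irf8: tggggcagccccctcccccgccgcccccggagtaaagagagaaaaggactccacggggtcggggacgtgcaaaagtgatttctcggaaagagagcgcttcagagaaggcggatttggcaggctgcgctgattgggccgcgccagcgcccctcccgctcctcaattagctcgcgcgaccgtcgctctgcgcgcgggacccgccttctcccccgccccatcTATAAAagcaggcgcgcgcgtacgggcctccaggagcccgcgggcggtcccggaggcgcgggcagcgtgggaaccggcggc
A match is a description of letters and not a binding site. Neither the second promoter listed for Gfi1 nor the second for Irf8 held a match to any of the 4 motifs.

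Cebpe, the regulator of specific granule genes, was detected mainly in neutrophils rich in their transcripts. In the granule-high class, 21 of 47 cells of replicate 1 (44.7%) and 25 of 62 of replicate 2 (40.3%) had a value above 0. In the granule-intermediate class it was above 0 in 0 of 24 and 1 of 28 cells, and in the granule-low class in 2 of 43 and 2 of 45 cells. Both replicates of the granule-high class thus lay above both of either lower class. Over both replicates the granule-high share was 42.2% (exact 95% binomial interval 32.8% to 52.04%) and the granule-low share 4.55% (1.25% to 11.2%); these intervals cover counting error only. Of the 8232 genes tested, 1.63% had at least as large a difference in detection between granule-high and granule-low cells in both replicates as Cebpe had (40.0 and 35.9 percentage points), while the median over these genes was 4.26 and 3.62 points.

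The higher shares of cells with Cebpe lay at the upper end of the granule scale. Among neutrophils with Mki67 at 0, Cebpe was above 0 in 4% of 25 cells with a granule level under 2, in 4.76% of 63 cells from 2 to 5, and in 1.92% of 52 cells from 5 to 10. From there the share went to 21.7% of 23 cells at 10 to 13, 41.0% of 61 cells at 13 to 15 and 64% of 25 cells above 15. The number of genes above 0 rose over the same bins, from a median of 1329 to 2303. In cells with 1500 to 2500 genes above 0, an alternative chosen after seeing the data, Cebpe was above 0 in 40 of 91 granule-high cells, 1 of 29 granule-intermediate cells and 0 of 20 granule-low cells, which allows a share of up to 15%. Within each plate, Spearman's rho of Cebpe with the granule level over 64 to 78 neutrophils was 0.50 to 0.60. With the number of genes above 0 it was 0.49 to 0.59, and the part of depth in the first relation was not tested.

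**Figure D1:**
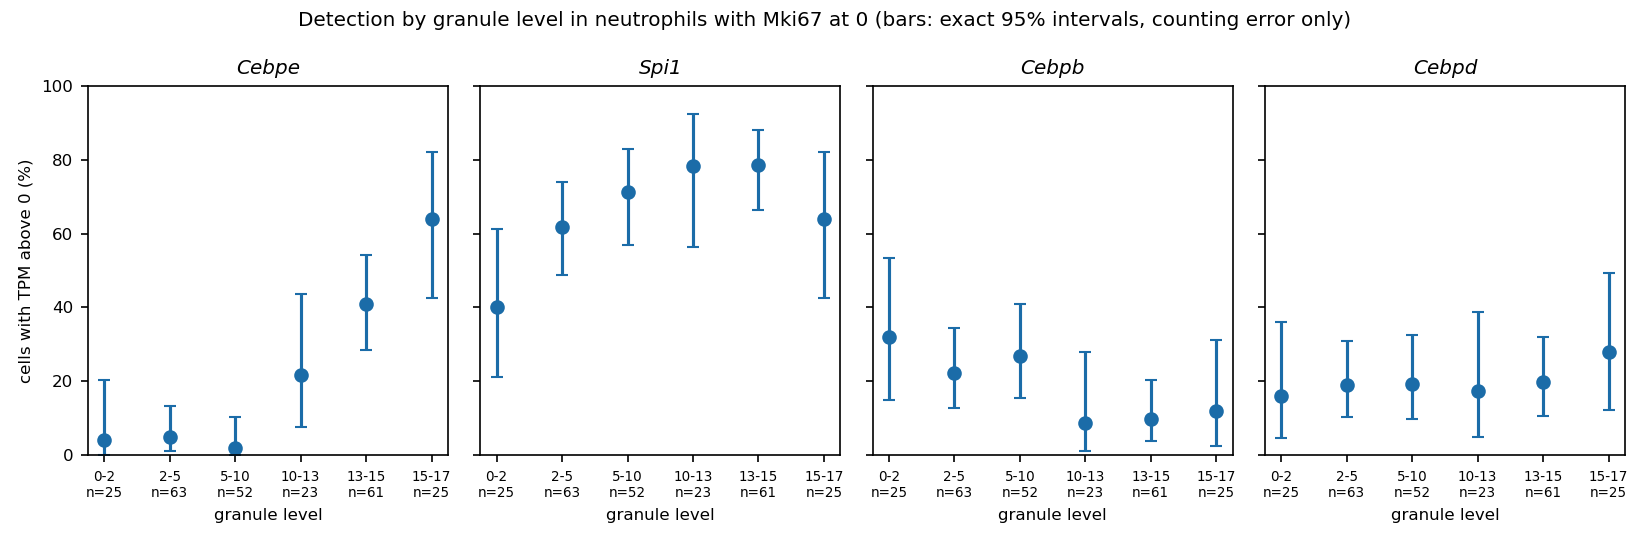
Share of Mki67-negative neutrophils with Cebpe, Spi1, Cebpb and Cebpd above 0 (y axis, percent) in 6 bins of granule level (x axis, with the number of cells), bars being exact 95% binomial intervals that cover counting error only. Cebpe stays under 5% up to a granule level of 10 and reaches 64% above 15, whereas Cebpb is highest in the lowest bin at 32%.

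The mean level of Cebpe was 61.5 TPM in granule-high cells of replicate 1 and 57.6 TPM in replicate 2, against 5.98 and 9.66 TPM in granule-low cells. The granule-low means rest on 4 cells, and without the highest cell of each replicate they were 0.09 and 2.12 TPM. On the log2(mean TPM + 1) scale, which understates the change of low genes, granule-high cells were 2.81 higher (SE 0.98; 3.16 in replicate 1 and 2.46 in replicate 2). This did not pass limma's test over all genes at 0.05 (adjusted p = 0.212, unadjusted p = 0.0207). When logs of single cells were averaged in place of TPM, the difference was 2.68 with an adjusted p of 0.0166, and it passed in none of the other alternatives (adjusted p up to 0.482).

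**Figure D2:**
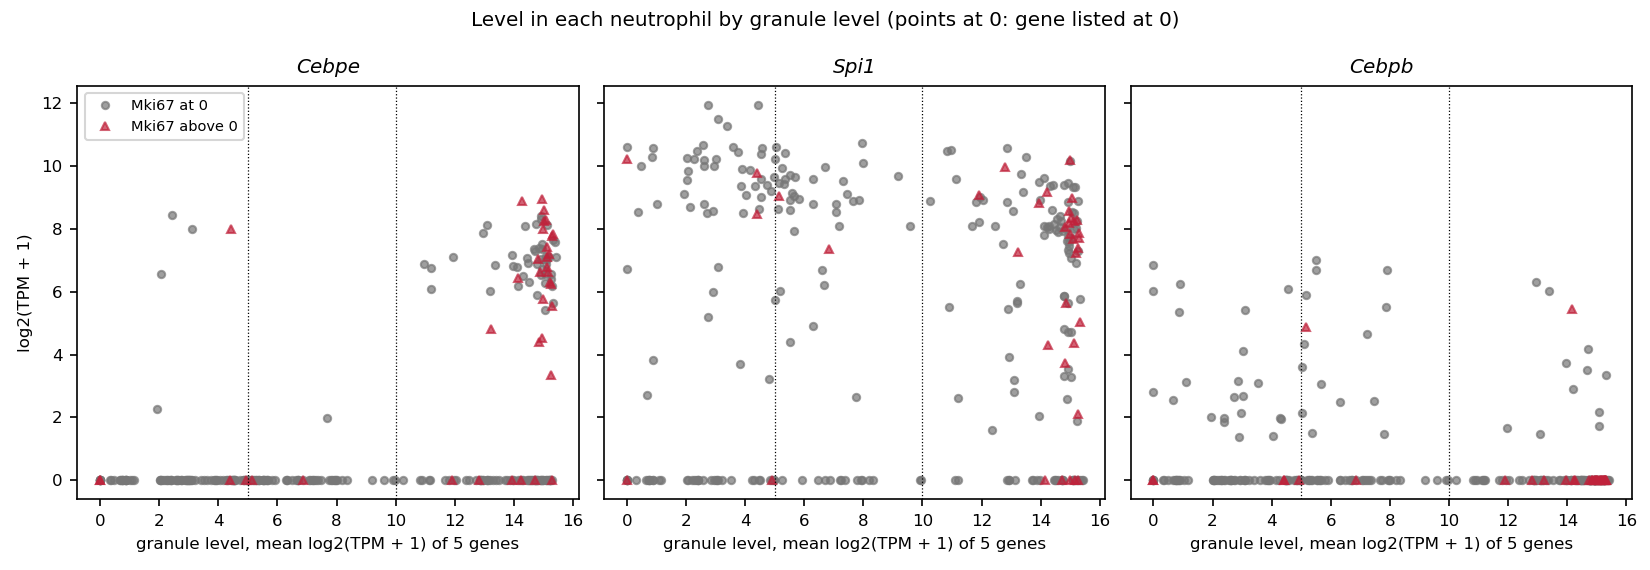
Each point is 1 neutrophil, placed by granule level (x axis, mean log2(TPM + 1) of 5 genes) and by the level of Cebpe, Spi1 or Cebpb (y axis, log2(TPM + 1)); red triangles have Mki67 above 0, and dotted lines mark the class limits of 5 and 10. Cells with Cebpe above 0 gather at the right edge, with 4 Mki67-negative cells below a granule level of 5.

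Within the granule-high class, cells with Cebpe above 0 had other granule transcripts than cells with Cebpe at 0. Fcnb, which encodes ficolin B, an early granule lectin, was above 0 in 30.4% of the 46 cells with Cebpe and in 7.94% of the 63 without. Mmp8, a collagenase gene of later stages, was above 0 in 78.3% and 95.2%, and Retnlg, another late gene, in 78.3% and 93.7%. The median number of genes above 0 was 2014 and 1841 in these groups. These are counts over cells of 2 samples and were not tested. Among Mki67-positive neutrophils the same contrast was 72% of 25 cells against 8.33% of 12 for Fcnb and 36% against 100% for Mmp8, with medians of 2721 and 1539.5 genes. The cells with Cebpe above 0 also had the higher median granule level, 15.01 against 9.38 in Mki67-positive and 14.87 against 14.2 in granule-high neutrophils. Within the granule-high class their mean was 32080 against 19554 TPM for Camp and 85469 against 59505 TPM for Ngp. It was 10919 against 6451 TPM for Chil3 and 31267 against 24453 TPM for Lcn2. For Ltf the means were close, at 24605 against 23252.5 TPM. The part of the granule level in these contrasts was not tested.

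Mki67-positive neutrophils had the highest Cebpe values of the 5 classes. Here 14 of 17 cells in replicate 1 (82.4%) and 11 of 20 in replicate 2 (55%) had Cebpe above 0, at mean levels of 161 and 74.2 TPM. Both means lay above both granule-high means, but the difference of 0.86 on the log2 scale (SE 0.98) did not pass limma's test (adjusted p = 0.94). Nor was the order kept within every plate, since on plate 3 the Mki67-positive mean was 48.2 TPM and the granule-high mean 50.3 TPM. Of the 14 Mki67-positive cells with a granule level above 15, 13 had Cebpe above 0 (92.9%). The medians of genes above 0 were 2349 in Mki67-positive and 1925 in granule-high cells. In cells with 1500 to 2500 genes above 0, Cebpe was above 0 in 10 of 18 Mki67-positive and 40 of 91 granule-high cells. By replicate these shares were 71.4% and 45.5% against 42.5% and 45.1%, so replicate 2 hardly differed. The part of depth was not tested.

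Spi1, the gene of PU.1, was the most widely detected and the most abundant member in each of the 4 neutrophil classes, by the mean over replicates. It was above 0 in 80.9% and 71.0% of granule-high cells of replicates 1 and 2, in 75% and 67.9% of granule-intermediate cells and in 60.5% and 51.1% of granule-low cells. Its mean level ran the other way, with 276 and 236 TPM in granule-high, 370 and 457 TPM in granule-intermediate and 451 and 612 TPM in granule-low cells. The median TPM of the cells above 0 was 255 in granule-high and 757 in granule-low cells, a ratio of 2.97. The median of this ratio over the 1801 genes above 0 in at least 20 cells of each class was 1.96, and 13.2% of them had a larger ratio than Spi1. Granule-high cells were thus 1.04 lower in mean level on the log2 scale (SE 0.38), without passing limma's test (adjusted p = 0.241). The sign depends on how cells are averaged: with averages of single-cell logs, which weigh detection more, granule-high cells were 0.53 higher (adjusted p = 0.855).

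In Mki67-positive neutrophils Spi1 was above 0 in 88.2% and 75% of cells, at 279 and 297 TPM, and in the other cells in 73.9% and 41.2%, at 355 and 175 TPM. The replicate 1 mean of the other cells fell to 218 TPM without its highest cell, which alone held 3374 TPM. That cell had 2629 TPM of S100a8 plus S100a9, with 5 neutrophil markers and 2 monocyte markers above 0. There Irf8 was above 0 in 25 and Spi1 in 24 of the 40 cells, and the order of their means differed between replicates, Spi1 being higher in replicate 1 (355 against 141 TPM) and Irf8 in replicate 2 (321 against 175 TPM). In every log2 difference between other cells and neutrophils, the neutrophil side is the mean of the granule-high, granule-intermediate and granule-low classes, without the Mki67-positive cells. For Spi1 the other cells were 0.61 lower (SE 0.31, adjusted p = 0.198), which did not pass limma's test. With a neutrophil threshold of 1000 TPM the difference was -0.84 and passed (adjusted p = 0.0268).

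Gfi1, a repressor that favours the neutrophil branch, was rare, being above 0 in 7 of 326 cells, too few for the test. It was above 0 in 5 of 17 Mki67-positive neutrophils of replicate 1 (29.4%), 2 on plate 1 and 3 on plate 2, and in 0 of 20 of replicate 2. The 5 cells held 105, 88.2, 59.1, 24.8 and 1.35 TPM. All 5 also had Cebpe and Spi1 above 0, and 4 had Runx1 above 0. Their number of genes above 0 ran from 2873 to 4686, higher than the class median of 2349, and the part of depth in this was not tested. The remaining 2 cells were a granule-high cell of replicate 1 (25.4 TPM), which also had Cebpe and Spi1 above 0, and a granule-low cell of replicate 2 (4.71 TPM). Gfi1 was listed at 0 in all 40 other cells, which allows a share of up to 7.5% with a value above 0.

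A single Mki67-positive cell of replicate 1 stood apart by its azurophil granule genes, the earliest granule class. It held 31987 TPM of Mpo, 50794 TPM of Elane, 37928 TPM of Prtn3 and 11799 TPM of Ctsg, with a granule level of only 4.42, and it was the cell just above the neutrophil threshold at 12512 TPM of S100a8 plus S100a9. It had 6 of the 8 members above 0, the most of any cell, among them Gfi1 at 88.2, Cebpa at 49.2, Cebpe at 252, Runx1 at 44.0 and Spi1 at 355 TPM. Over the 7 Mki67-positive neutrophils with at least 1 of these 4 azurophil genes above 0, Cebpe was above 0 in 6, Runx1 in 4 and Cebpa in 2. In the 30 without any, Cebpe was above 0 in 19, Runx1 in 11 and Cebpa in 1. The medians of genes above 0 were 3793 and 2130.5.

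Runx1, a core-binding factor of stem and progenitor cells, was above 0 in 52.9% and 30% of Mki67-positive neutrophils, above both granule-high replicates at 17.02% and 9.68%. It was above 0 in 8.33% and 3.57% of granule-intermediate and 11.6% and 6.67% of granule-low cells. The Mki67-positive means were 15.7 and 14.2 TPM and the granule-high means 11.7 and 2.93 TPM, the former falling to 5.8 TPM without its highest cell. The log2 difference was 1.17 (SE 0.997, limma adjusted p = 0.875). Granule-low means, at 19.3 and 14.5 TPM, overlapped those of the Mki67-positive cells, but the second fell to 5.49 TPM without its highest cell (409 TPM), and it rests on 3 cells above 0. Among other cells Runx1 was above 0 in 39.1% and 29.4%, at 13.5 and 7.78 TPM. In cells with 1500 to 2500 genes above 0, the Mki67-positive share was 4 of 18 and the granule-high share 10 of 91.

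Cebpa, the progenitor member of the C/EBP family, was above 0 in 9 of 286 neutrophils (3.15%, exact 95% interval 1.45% to 5.89%) and in 9 of 40 other cells (22.5%, 10.8% to 38.5%). In the other cells the mean was 26.1 TPM in replicate 1 and 9.003 TPM in replicate 2. The highest of these cells, at 209 TPM, had 1795 TPM of S100a8 plus S100a9 and 6 neutrophil markers above 0. The granule-high means were 2.29 and 0 TPM, the granule-intermediate means 0 and 21.2 TPM, the granule-low means 7.15 and 0 TPM and the Mki67-positive means 2.90 and 2.495 TPM. No granule class had Cebpa above 0 in both replicates. The log2 difference of 2.51 between other cells and neutrophils did not pass limma's test (SE 1.36, adjusted p = 0.218). It passed with averages per plate (2.91, adjusted p = 0.0325) and with averages of single-cell logs (1.04, adjusted p = 0.00564). Of the 13 other cells with Mki67 above 0, 6 had Cebpa above 0, against 3 of the 27 without, with medians of 3765 and 2640 genes.

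Cebpb, the member associated with emergency granulopoiesis and macrophage activation, was detected more often in neutrophils with fewer granule transcripts. It was above 0 in 6.38% and 12.9% of granule-high cells, 33.3% and 21.4% of granule-intermediate and 27.9% and 22.2% of granule-low cells, and in 1 of 17 and 1 of 20 Mki67-positive cells. Its granule-high means were 1.76 and 2.01 TPM, its granule-intermediate means 13.6 and 6.67 TPM and its granule-low means 6.95 and 4.09 TPM. Single cells carried much of these levels. Without the highest cell of each replicate the means were 0.42 and 0.75 TPM in granule-high, 8.64 and 3.14 TPM in granule-intermediate and 4.39 and 2.73 TPM in granule-low cells. The difference of -1.14 between granule-high and granule-low cells was not called (SE 0.99, limma adjusted p = 0.665). In cells with 1500 to 2500 genes above 0, Cebpb was above 0 in 9 of 91 granule-high, 9 of 29 granule-intermediate and 5 of 20 granule-low cells. Among the other cells, 22.5% had Cebpb above 0. The highest of them, at 145 TPM, had 4019 TPM of S100a8 plus S100a9 and 6 neutrophil markers above 0. The Cebpb transcript is rich in G and C, at 67.2% against a median of 50.4% over protein-coding transcripts, 99.6% of which lie lower. Whether this lowers its values here was not tested.

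Cebpd, which encodes an acute-phase C/EBP protein, was above 0 in 14.9% and 25.8% of granule-high, 16.7% and 21.4% of granule-intermediate, 18.6% and 17.8% of granule-low and 29.4% and 30% of Mki67-positive cells. The 3 classes with Mki67 at 0 overlapped in these shares. Its means were 20.003 and 33.0 TPM in granule-high cells, 51.8 and 25.2 TPM in granule-intermediate cells, 62.6 and 51.4 TPM in granule-low cells and 29.5 and 30.2 TPM in Mki67-positive cells. Without the highest cell, the Mki67-positive means were 9.11 and 12.1 TPM and the granule-intermediate mean of replicate 1 was 22.2 TPM. In the other cells it was above 0 in 3 of 23 and 2 of 17 cells, at 7.88 and 3.22 TPM, below both replicates of every neutrophil class. Other cells were 2.66 lower on the log2 scale (SE 0.64; -2.22 in replicate 1 and -3.09 in replicate 2), a difference that passed limma's test (adjusted p = 0.020). The shares of cells with Cebpd overlapped in their intervals, at 12.5% (4.19% to 26.8%) in other cells and 21.0% (16.4% to 26.2%) in neutrophils. The call was lost with averages of single-cell logs (-0.69, adjusted p = 0.0931) and when cycling cells were set apart by 10 other cell cycle genes (-2.61, adjusted p = 0.067).

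Irf8, which drives the monocyte and dendritic cell branch and is also made in B cells, was nearly absent from neutrophils and common in the other cells. It was above 0 in 13 of 23 other cells of replicate 1 (56.5%) and 12 of 17 of replicate 2 (70.6%), at means of 141 and 321 TPM. Of the neutrophils, 0 of 131 in replicate 1 and 4 of 155 in replicate 2 had Irf8 above 0. Of these 4 values, 3 were 0.66, 1.68 and 2.19 TPM. The last, 168 TPM, came from a granule-low cell with 5 of 6 B cell markers and 4 monocyte markers above 0, and no doublet caller was run. All 37 Mki67-positive neutrophils had Irf8 listed at 0, which allows a share of up to 8.11%.

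Other cells exceeded neutrophils in Irf8 by 7.35 on the log2 scale (SE 0.75; 7.15 in replicate 1 and 7.54 in replicate 2), which passed limma's test (adjusted p = 0.000666). Irf8 passed the filter on low values through the other cells alone, and with neutrophil means between 0 and 3.77 TPM the size of the difference is set by the added constant, being 10.04 with a pseudocount of 0.1 and 4.40 with one of 10. Because of the filter, the call of Irf8 is not read as a result here. It was also called in all 17 alternatives in which it was tested, which does not lift this limit. Irf8 was not tested under the stricter filter or with genes detected balanced. Within the other cells, Irf8 was above 0 in 22 of the 28 with at least 3 monocyte markers and in 3 of the other 12, with medians of 3287 and 1674.5 genes. Those 3 cells comprised 2 with 5 T or NK cell markers and 1 with 6 B cell markers. The marker lists are given as measured, and their part in the difference was not tested.

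**Figure D3:**
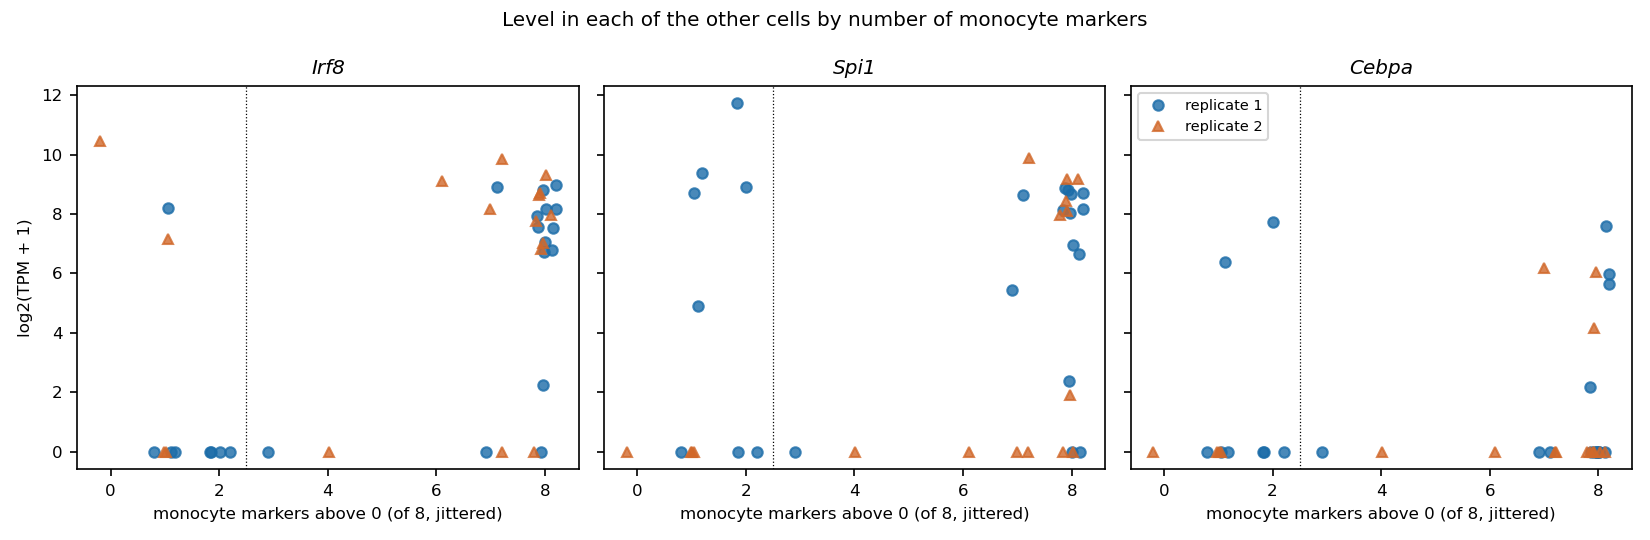
Each point is 1 of the 40 other cells, placed by the number of 8 monocyte markers above 0 (x axis, jittered) and by the level of Irf8, Spi1 or Cebpa (y axis, log2(TPM + 1)); symbols give the replicate and the dotted line separates cells with fewer than 3 markers. Irf8 is above 0 in 22 of 28 cells to the right of the line and in 3 of 12 to its left.

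Across the members tested, 0 of 7 were called between granule-high and granule-low cells, where limma called 0.923% of 8232 genes higher (76) and 1.37% lower (113). With TPM rescaled without the most abundant genes this split was 101 and 67. Of the members, Cebpe and Spi1 had an unadjusted p under 0.05. Between Mki67-positive and granule-high cells limma called 0 of 7 members and 0% of all genes, while 726 genes and 0 members had an unadjusted p under 0.05. Against neutrophils, the other cells had 1 of 7 members called lower (Cebpd), beside 4.3% of all genes, and the median log2 difference of all genes was 0.94. Irf8 was called higher, beside 18.8% of all genes. It passed the filter on low values through the other cells alone, so its call is not read as a result here. Gfi1 was the member not tested. Counting replicates that did not overlap in mean TPM, granule-high cells were above granule-low cells for 1 member (Cebpe) and below for 4 (Cebpb, Cebpd, Spi1, Runx1), where the shares over all genes were 22.9% and 28%. Mki67-positive cells were above granule-high cells for 4 members (Cebpa, Cebpe, Spi1, Runx1), against 23.6% of genes, and below for none, against 18%. In this count the log2 difference of Spi1 in replicate 1 was only 0.014. Cebpa rests there on 3 Mki67-positive and 2 granule-high cells above 0. The other cells were above the mean of the 3 Mki67-negative classes for 2 members (Cebpa, Irf8) and below for 3 (Cebpd, Cebpe, Spi1), against 43.4% and 19.7%. The limit given for the call of Irf8 holds for this count too. The median number of members above 0 per cell was 2 in granule-high, Mki67-positive and other cells and 1 in granule-intermediate and granule-low cells.

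**Figure D4:**
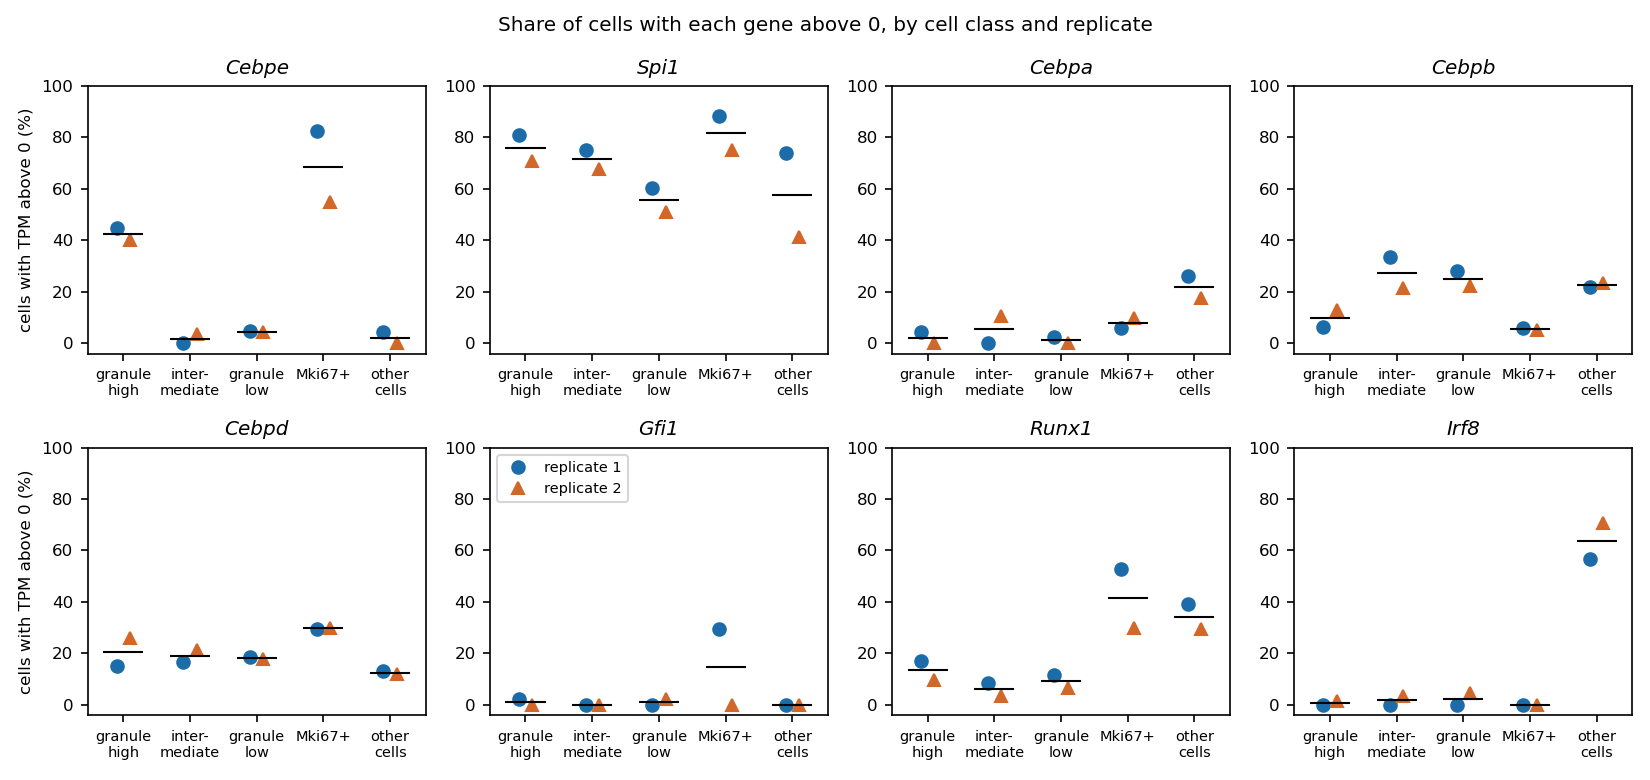
Percent of cells with each gene above 0 (y axis) in 5 cell classes (x axis), with 1 symbol per replicate and a line at the mean of both. Cebpe is at 40.3% to 82.4% in granule-high and Mki67-positive neutrophils and under 5% elsewhere, and Irf8 is at 56.5% and 70.6% in other cells and under 5% in every neutrophil class.

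**Figure D5:**
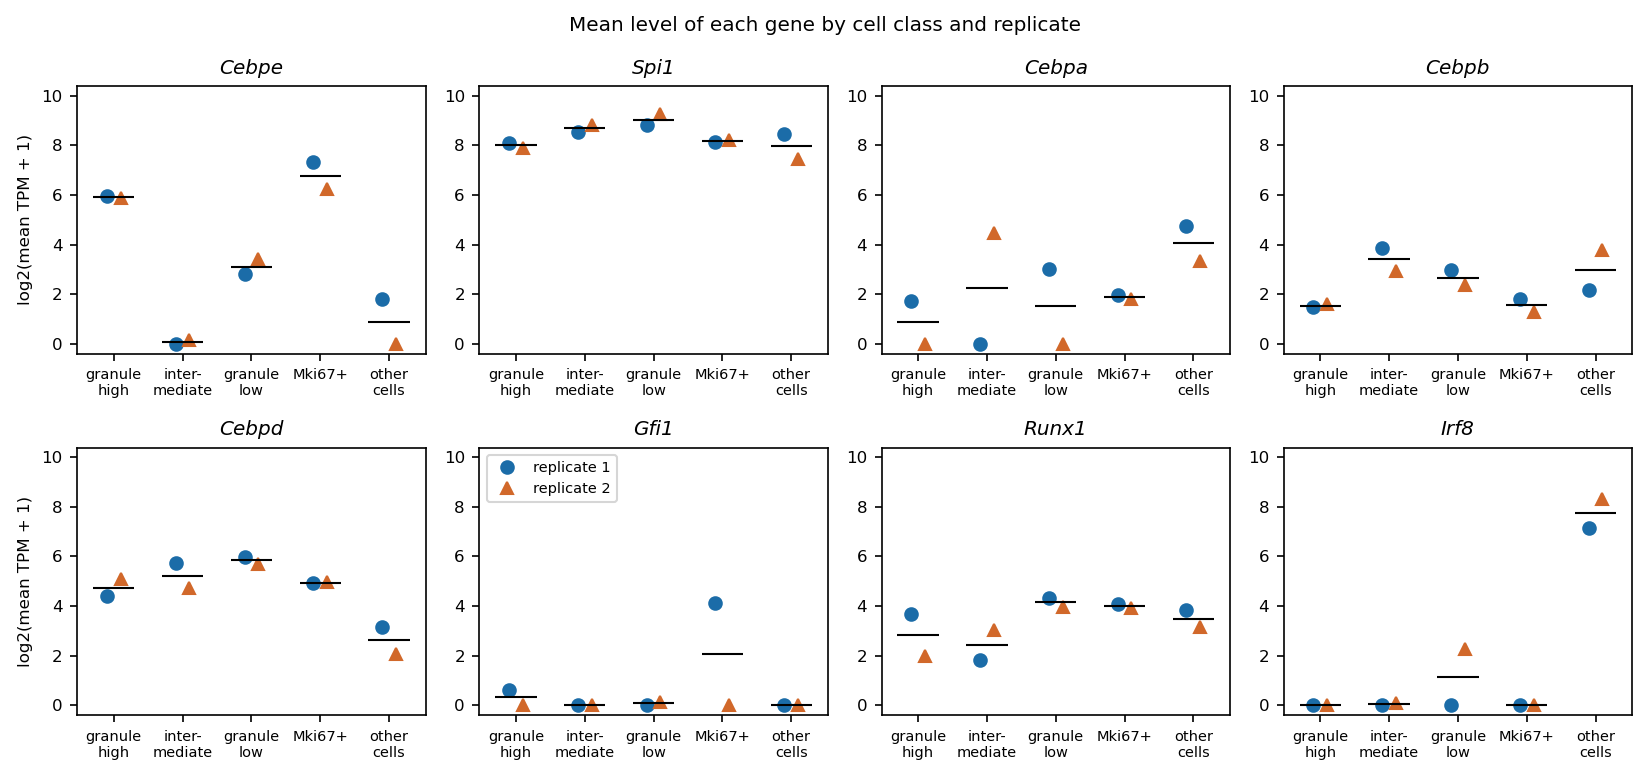
Mean TPM of each gene in each class as log2(mean TPM + 1) (y axis), with 1 symbol per replicate and a line at the mean of both. Spi1 is between 175 and 612 TPM in every class and replicate, while Gfi1 exceeds 1 TPM in a single class mean, that of Mki67-positive neutrophils of replicate 1.

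Genes with the profile most like each member were found by Pearson's r over the 10 class means (5 classes in 2 replicates, which share the cells' TPM total) among 3434 genes with a mean of at least 20 TPM. For Cebpe these were Sp140 (r = 0.96), Inhba (0.91) and Orm1 (0.91). Orm1, an acute-phase protein gene, was at 146 and 87.5 TPM in granule-high, 158 and 226 TPM in Mki67-positive and at most 1.45 TPM in the granule-intermediate, granule-low and other cells. For Irf8 they were Dusp3 (0.999), Npc2 (0.98) and Ms4a6c (0.98), and for Spi1 Stk11 (0.94), Fbxl5 (0.93) and Cdc42se1 (0.92). Irf8 was at most 3.77 TPM in any neutrophil mean, so its r rests mainly on the other cells. That highest mean, of granule-low cells of replicate 2, was 0.05 TPM without its highest cell, which had 5 B cell markers above 0. Cebpd was most like Zfp276 (0.95), Ppp1r3d (0.95) and 2610507I01Rik (0.94), and Cebpb most like Gm17644 (0.95), Orai3 (0.92) and Acot9 (0.89). The closest r was 0.85 for Cebpa (Trim25) and 0.82 for Runx1 (Gtf2a1).

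Genes around the members were described by lists, to be read against the shares called over all genes (0.923% higher and 1.37% lower) and the median log2 difference of all genes, -0.03. Of 9 tested growth factor receptor genes, 2 fell in granule-high relative to granule-low cells: Csf3r, the G-CSF receptor, at 267 and 319 TPM against 2504 and 3226 TPM (log2 difference -3.28, SE 0.30, adjusted p = 0.0037), and Csf2rb, the shared beta chain of the GM-CSF and IL-3 receptors, at -2.28 (SE 0.44, adjusted p = 0.043). The list's median was -1.42. Of 7 tested azurophil granule genes 1 was called higher, Fcnb, at 232 and 188 TPM in granule-high and listed at 0 in granule-low cells, and the list's median was 1.32. Of 17 late neutrophil genes 3 rose (Mmp8, Cd177 and Lyz2) and 5 fell, among them Cxcr2 and Il1b, with a median of -0.31. Of 30 related transcription factors 1 fell, the immediate early gene Egr1, at 2.79 and 8.90 TPM against 387 and 931 TPM, and 0 rose, with a median of -0.48. Of 11 C/EBP partners and regulators 0 were called, with a median of -0.19. Of 16 monocyte and macrophage genes 1 rose (Ly6c2) and 1 fell (Cd74), with a median of -0.24. Between Mki67-positive and granule-high cells limma called no gene of any list, and the azurophil list had a median log2 difference of 2.43 against 0.07 over all genes.

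For the other cells against neutrophils, the same lists are to be read against 18.8% of all genes called higher, 4.3% called lower and a median of 0.94. Of 16 tested monocyte and macrophage genes, 6 (Ccr2, Cx3cr1, Ms4a6c, F13a1, Fn1 and Klf4) were under 1 TPM in every neutrophil mean and so passed the filter on low values through the other cells alone. Klf4, a monocyte transcription factor, was at 31.3 and 53.4 TPM in the other cells and at most 0.612 TPM in any neutrophil class. Of the remaining 10 genes 9 were called higher, among them Csf1r, the M-CSF receptor, by 2.89 (SE 0.86, adjusted p = 0.0459). The 30 related transcription factors had a median of 0.34 and also hold Klf4, which passed the filter through the other cells alone. Of the remaining 29 genes 6 rose (Myc, Irf5, Zeb2, Egr1, Ets1 and Nr4a1) and 1 fell (Id1), shares close to those over all genes. Among them Myc was listed at 0 in the 3 Mki67-negative classes and at 20.2 and 7.73 TPM in Mki67-positive neutrophils. It thus passed the filter without the neutrophils compared here, and its call is not read as a result. Of 11 C/EBP partners and regulators 1 fell and 0 rose, with a median of 0.17: Trib1, whose product promotes the degradation of C/EBPα, was at 27.002 and 49.1 TPM against 153 to 220 TPM in the 3 Mki67-negative classes (log2 difference -2.30, SE 0.37, adjusted p = 0.00448). Of 17 late neutrophil genes 11 fell and 1 rose (Lyz2), with a median of -1.77. Of 9 growth factor receptor genes, with a median of 0.14, Il6st was listed at 0 in every neutrophil class. It thus passed the filter on low values through the other cells alone. Of the remaining 8 genes 2 were called higher (Csf1r and Il3ra).

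Of 7 azurophil granule genes, Prtn3, Fcnb and Nkg7 were called higher in the other cells than in the mean of the 3 Mki67-negative classes and Hk3 lower, with a list median of 0.43. Against the classes left out or averaged there, the order was not the same for Fcnb. Fcnb, at 88.2 and 43.9 TPM in the other cells, was at 232 and 188 TPM in granule-high and at 1483 and 859 TPM in Mki67-positive neutrophils, and it was listed at 0 in the granule-intermediate and granule-low classes. Prtn3 was at 178 and 49.3 TPM in the other cells and at 2274 and 34.3 TPM in Mki67-positive neutrophils. The replicate 1 mean of the latter rests mainly on a single cell at 37928 TPM. In replicate 2 the Mki67-positive mean lay below that of the other cells. Nkg7, also a gene of cytotoxic lymphocytes, was at 83.5 and 1086 TPM in the other cells, where the summed level of the 7 T or NK cell markers, a list that holds Nkg7 itself, was 94.3 and 3700 TPM, and their part in the result was not tested.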

How the data were processed

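The authors deposited TPM values per gene and cell, estimated with RSEM on mm10 per the submitters' processing notes; the sources used here name no version, aligner or annotation. TPM keeps no sequencing depth, so precision rests on the number of cells, and the number of genes above 0 stood in for depth. A 0 can be a failed estimate: 9283 genes were at 0 in every cell. No cell had fewer than 500 genes above 0, and no doublet caller was run.

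Mean TPM was taken over the cells of each class in each replicate. These 10 means entered limma 3.58.1 (R 4.3.3; trend, robust) as log2(mean TPM + 1) with the replicate as a block, since all classes come from the same replicates, giving 4 residual degrees of freedom. Genes with a mean of at least 1 TPM and above 0 in at least 10 cells were tested (8232), with Benjamini-Hochberg adjustment at 0.05 in each of 3 comparisons; other cells were set against the mean of the 3 Mki67-negative neutrophil classes. The fit was checked on simulated data. Shares of cells carry exact binomial 95% intervals, a share of 0 the limit of 3 cells of the total. Cells were not replicates, and an exact two-sided permutation test of 2 against 2 values cannot go below p = 0.333, so no single shares were tested.

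The members, lists, classes and bins of granule level were chosen with earlier results of these data known. The text names all 8 members, the 3 genes most like each (among genes above 0 in at least 10% of cells) and list genes that were called, except for a result that is not reported here. The alternatives tried were other pseudocounts, filters, scalings, averages, class limits, thresholds and depth limits.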

Additional observations from a re-analysis of the deposited data

How the results depend on the processing

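No result changed sign under any alternative while called. Counts of called genes moved more than the members did. Between granule-high and granule-low cells, 76 genes were higher and 113 lower. The higher count was 34 with no filter, 322 with averages of log2(TPM + 1), 44 without limma's trend and robust options, 159 with averages per plate, 130 with classes of equal size cut within each plate, 24 with genes detected balanced and 35 with cycling cells called by 10 other genes. The lower count was 34 with no filter, 67 with rescaled TPM, 65 with median-ratio scaling, 24 without trend and robust options, 196 with classes of equal size, 44 with genes detected balanced and 30 with the other cycling genes. Between Mki67-positive and granule-high cells, the counts of 0 became 14 higher and 1 lower with a pseudocount of 10, 147 and 13 with averages of logs, 84 and 10 with averages per plate, and 113 and 100 with the other cycling genes, and the higher count became 28 without trend and robust options and 1 with classes of equal size. For other cells, the higher count of 1549 became 661 under the stricter filter, 3825 with averages of logs, 231 with genes detected balanced and, among the alternatives added after seeing the data, 841 with other cells whose Mki67 was at 0. The cause of these shifts was not tested. Without the replicate block the counts were 93 and 112, 0 and 0, and 1597 and 377, and the block changed the call of no member. Of the members, Cebpe became called lower in other cells with classes of equal size (-3.23), without trend and robust options (-2.14), and with other cells lacking Mki67 or lymphocyte markers (-3.03 each), and Runx1 became called higher with averages of logs (0.96). Rescaling moved the median log2 difference of all genes from -0.03 to 0.26 between granule-high and granule-low cells and from 0.94 to 0.69 for other cells. Leaving out a replicate leaves no residual degrees of freedom and no test, and each replicate's own differences stand in the report. Of 40 shares of cells (8 genes, 5 classes), 12 moved by more than their SD in cells with 1500 to 2500 genes. Shares in small classes are limited by cell number: in 37 Mki67-positive cells a 0 still allows 8.11%.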

Other observations

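Co-detection of the members was read as a share of each gene's cells. Among neutrophils, 60 of the 76 cells with Cebpe above 0 also had Spi1 above 0 (78.9%), while Spi1 was above 0 in 69.2% of all 286 neutrophils; the 60 cells are 30.3% of those with Spi1. Within the granule-high class Spi1 was above 0 in 76.1% of the cells with Cebpe and in 74.6% of those without. Cebpb and Cebpd, the C/EBP genes linked to inflammation, were above 0 together in 12 neutrophils, which are 24.5% of the 49 with Cebpb and 20% of the 60 with Cebpd. Over all neutrophils Cebpd was above 0 in 21.0% and Cebpb in 17.1%. In the other cells Spi1 and Irf8, whose products can bind DNA together, shared 16 cells, 66.7% of the 24 with Spi1 and 64% of the 25 with Irf8. These shares are near those over all 40 other cells, where Irf8 was above 0 in 62.5% and Spi1 in 60%. All 5 other cells with Cebpd above 0 also had Irf8 above 0. No test was made over these cells.

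Cells with none of the 8 genes above 0 numbered 9 of 109 in the granule-high, 12 of 52 in the granule-intermediate and 19 of 88 in the granule-low class, 0 of 37 in Mki67-positive neutrophils and 6 of 40 in other cells. The order follows the number of genes above 0 among the neutrophil classes, except that granule-intermediate cells had more genes above 0 than granule-low cells.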
